A study of Mus musculus with 6 samples.

Results

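Rad21-deficient bone marrow-derived macrophages with transcripts of Cd69 after 2 h of LPS were compared with cells of the same sample in which no Cd69 transcript was counted. A cell was called Cd69-positive when it held at least 1 unique molecular identifier (UMI, the tag that marks 1 captured transcript) of Cd69, and Cd69-negative when it held 0. Cells with a UMI sum of at most 25000 were used, which left 184 cells after 2 deeper wells of this sample had been dropped, out of 1362 cells in the whole series. Of these, 76 cells were Cd69-positive (41.3%) and the remaining 58.7% were Cd69-negative. The classes were thus chosen by the Cd69 counts themselves, and the Cd69 values below are descriptions.

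CD69 is a type II membrane glycoprotein of the C-type lectin family, best known as an early activation antigen of lymphocytes, and it is also induced on activated myeloid cells. It binds the sphingosine-1-phosphate receptor S1PR1 and takes it off the cell surface, which retains lymphocytes in tissue. RAD21 is a subunit of cohesin, the ring-shaped complex that holds chromatin loops together. LPS acts through Toll-like receptor 4 and switches on chemokine, cytokine and interferon genes in macrophages.

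The study applied MARS-seq, a plate-based method for single cells sorted by flow cytometry, to wild-type and Rad21-/- macrophages that were untreated or had received 10 ng/ml of LPS from Salmonella for 2 or 8 h, which gave 6 samples with 1 sample for each genotype and time point. Both genotypes carried creERT2 on both Rosa26 alleles and were treated with 200 nM 4-hydroxy-tamoxifen 96 h into a culture that was used on day 7. Wild-type cells had Rad21 WT/WT alleles and Rad21-/- cells had Rad21 lox/lox alleles, from mice of both sexes aged 6 weeks to 6 months on a mixed background of C57BL/6 and another inbred strain. The Cre was switched on by 4-hydroxy-tamoxifen in the culture, in any cultured cell that expressed Rosa26, so that deletion was not limited to 1 cell type of the culture. The number of animals behind a sample was not given in the sources used here. With 1 sample per condition, no test was run, no p-value is given, and all intervals are 95% intervals that cover counting error only. Cells are not replicates, and the intervals do not hold the variation between cells or cultures.

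Rad21 itself was counted in 25.6%, 24.9% and 18.2% of wild-type cells at 0, 2 and 8 h and in 2.62%, 5.43% and 5.41% of Rad21-/- cells. Among the Rad21-/- cells at 2 h, 3 of 76 Cd69-positive cells held 3 Rad21 UMIs in all (3.95% of cells, Clopper-Pearson interval 0.822 to 11.1), and 7 Cd69-negative cells held 7 (6.48%, 2.65 to 12.9). Whether these reads come from undeleted alleles or from a part of the transcript outside the deleted exons cannot be told apart. At this depth no difference in residual Rad21 was detectable between the classes.

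Cd69 lies on chromosome 6 of GRCm38 at 129267324-129275375, where the annotation holds a protein-coding gene. At 2 h of LPS, 41.3% of Rad21-/- cells were Cd69-positive (Clopper-Pearson interval 34.1 to 48.8), against 17.7% of wild-type cells (12.4 to 24.0). At 8 h the order was the opposite, with 43.5% of wild-type cells (37.3 to 49.8) and 30.6% of Rad21-/- cells (24.6 to 37.1). Without LPS, transcripts were seen in 3 of 238 wild-type cells (1.26%) and in 0 of 267 Rad21-/- cells, so that up to 1.12% of cells could still hold a UMI by the limit of 3 counts. The untreated cells were in 8 library pools of their own, of which 0 were shared with the cells at 2 h. After every cell had been thinned at random to 3800 UMIs, the share at 2 h was 28.9% in Rad21-/- cells and 7.5% in wild-type cells, and at 8 h it was 17.9% and 33.9%.

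**Figure D1:**
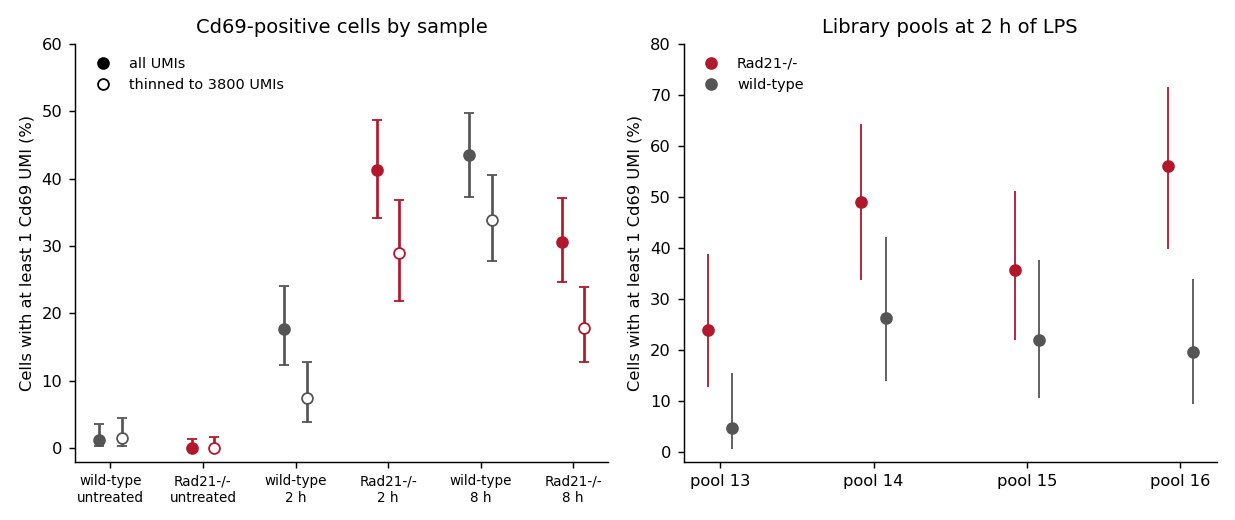
Percentage of cells with at least 1 Cd69 UMI in each sample, from all UMIs (filled) and after thinning to 3800 UMIs per cell (open), and in the 4 library pools of the 2 h time point. Bars are 95% Clopper-Pearson intervals. Rad21-/- cells at 2 h stand at 41.3% and 28.9%, and in each of the 4 pools their share lies above that of the wild-type cells.

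The Cd69-positive cells differed widely in how much Cd69 they held. Of the 76 cells, 37 had 1 Cd69 UMI, 20 had 2, 7 had 3, 3 had 4, 5 had 5, and the remaining cells had 6, 7, 11 and 12. The mean was 2.25 UMIs per positive cell, while positive wild-type cells at 2 h had 1.16. At least 2 Cd69 UMIs were found in 21.2% of Rad21-/- cells and in 2.76% of wild-type cells at this time. The variance of the thinned Cd69 counts was 2.18 times their mean in Rad21-/- cells at 2 h and 1.08 times in wild-type cells. The mean was 0.487 thinned UMIs in the former and 0.081 in the latter, so that the 2 ratios stand at unlike means. In wild-type cells at 8 h, with a mean of 0.496, the variance was 1.38 times the mean. Without the 2 cells with the most Cd69 it was 1.47 times the mean in Rad21-/- cells at 2 h and 1.29 times in wild-type cells at 8 h. Among the 522 genes with a thinned mean within 1.2-fold of that of Cd69 in all Rad21-/- cells at 2 h, the ratio of variance to mean had a median of 1.05. Dusp1, a phosphatase that switches off MAP kinases, was the gene with a larger value than the 2.18 of Cd69, at 2.34. With all their cells kept, others such as Gm43743 at 2.13 and Gm10801 at 1.84 lay above the 1.47 of Cd69 without its 2 highest cells. The 2 wells above the limit of 25000 UMIs, which were left out, held 96535 and 72517 UMIs with 3 and 5 UMIs of Cd69, and the deepest cell that was kept held 21185 UMIs.

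Cd69-positive cells were deeper than Cd69-negative cells. They had a median of 6405.5 UMIs, with quartiles of 5525.75 and 9114.5, against 5254.5 UMIs, with quartiles of 3893 and 7548.75. They also had more detected genes, with medians of 3049.5 and 2490. A cell in which more transcripts are captured shows a rare transcript more often, and the share of positive cells was 22.6% among the 62 shallowest cells, 51.7% among the 60 cells of middle depth, and 31 of the 62 deepest cells were positive. After thinning, these shares were 23.3%, 36.7% and 24.2%. A larger RNA content and a better captured well cannot be told apart here. All comparisons of other genes were therefore made at 3800 UMIs per cell, which kept 69 Cd69-positive and 83 Cd69-negative cells and left out 7 and 25 shallower ones. At this depth the medians of detected genes were 2053 and 1976.

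**Figure D2:**
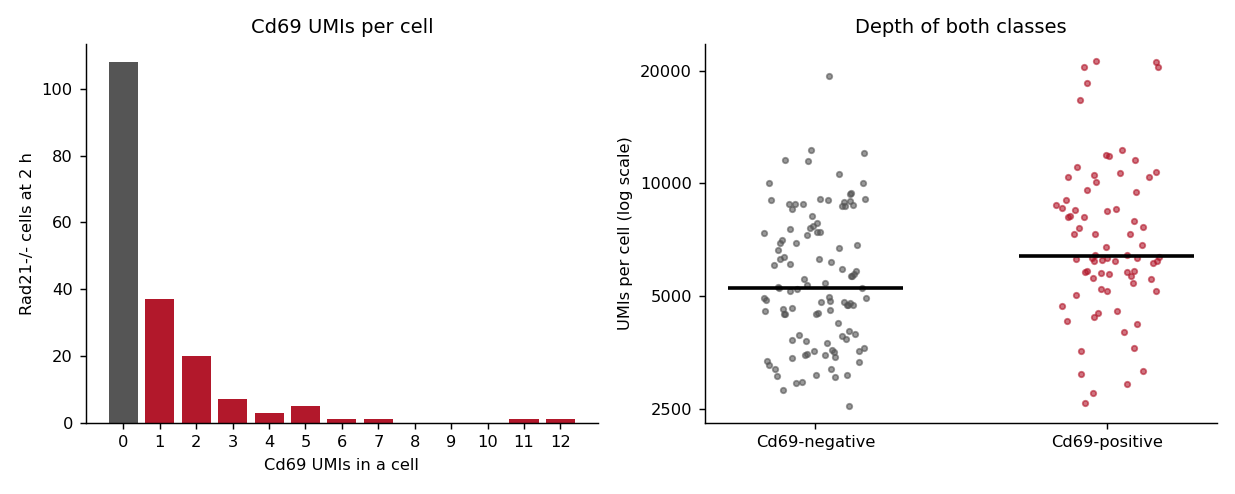
Number of Rad21-/- cells at 2 h with each count of Cd69 UMIs (left), and UMIs per cell of both classes on a log scale, with a line at the median (right). The classes overlap, with medians of 5254.5 and 6405.5 UMIs, and 37 of the 76 positive cells rest on 1 UMI of Cd69.

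The cells came from 7 library pools, the sets of wells that were indexed and amplified together, and 4 pools held nearly all of them. The share of Cd69-positive cells was 23.9% of 46 cells in pool 13, 48.9% of 45 in pool 14, 35.6% of 45 in pool 15 and 56.1% of 41 in pool 16. Wild-type cells of the same pools stood at 4.55%, 26.2%, 21.95% and 19.6%. The share was thus lower in wild-type than in Rad21-/- cells in each of the 4 pools. From all UMIs, pool 13 was the lowest for both genotypes, but its Rad21-/- cells were also the shallowest of the 4 pools. Their median was 4847 UMIs, against 7063 in pool 16. After thinning, the Rad21-/- shares in pools 13 to 16 were 24.2%, 35.1%, 19.4% and 32.5%, with pool 15 the lowest. The wild-type shares were then 0%, 10%, 10% and 8.70%, again lower in each pool. Pool 13 also held a well of 496955 UMIs with 15 of Cd69, and pool 16 a well of 203708 UMIs with 10. Whether transcripts of such wells reached their neighbours was not tested. Because the classes were spread unevenly over the pools, values within pools are given below beside the pooled ones.

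At equal depth the classes were close to each other over most of the transcriptome. Of the 1864 genes with at least 50 thinned UMIs over both classes, 70 (3.76%) were at least 1.5-fold higher in Cd69-positive cells and 41 (2.2%) at least 1.5-fold lower. These are ratios of mean UMIs per cell after 1 UMI had been added to the sum of each class. The median log2 ratio over all tested genes was 0.03, and 10 genes lay past 2-fold higher and 4 past 2-fold lower. With the ratios centred on their median, 55 genes were higher and 55 lower. The median half-width of the counting interval was 0.64 on the log2 scale, wider than the 1.5-fold limit, so that for a typical gene a difference of this size was not detectable beyond counting error. Genes past the limit were mostly scarce, since 7 of the 70 and 5 of the 41 had at least 100 thinned UMIs, against 805 of all 1864. Of the 70, 23 were also higher on average in each of the 4 pools (32.9%), and of the 41, 19 were lower in each (46.3%). Among all 1864 tested genes, 221 (11.9%) kept the sign of their pooled ratio in each of the 4 pools. These counts are a description, since the pooled ratios that chose the genes were made from the same pools. Over all tested genes 53.8% of the log2 ratios were above 0 and 46.2% below.

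**Figure D3:**
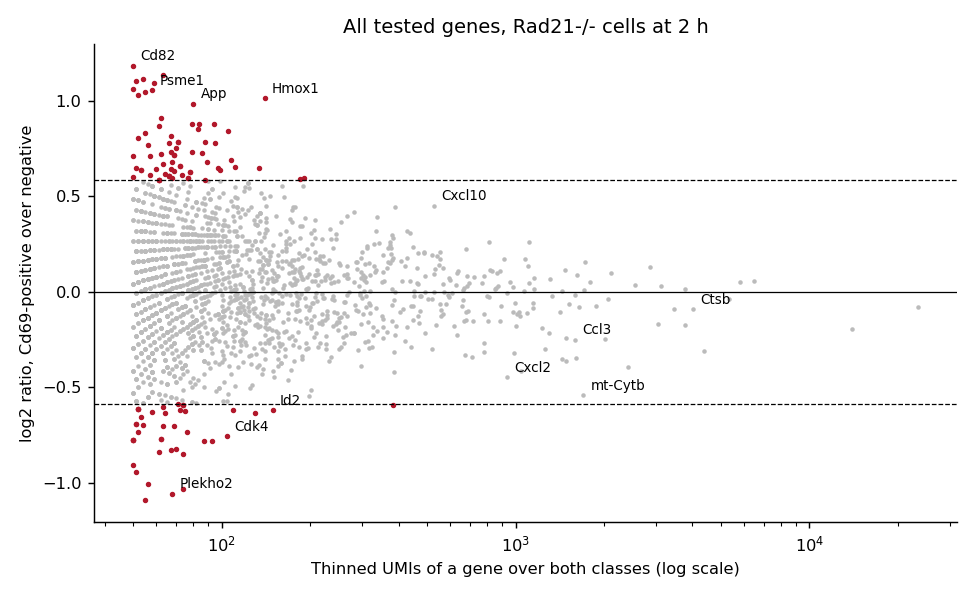
Log2 ratio of mean thinned UMIs, Cd69-positive over Cd69-negative Rad21-/- cells at 2 h, against the thinned UMIs of each of 1864 genes on a log scale. Red points lie past the 1.5-fold limits drawn as dashed lines. They are 70 genes above and 41 below, most of them with fewer than 100 UMIs.

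Part of these differences comes from the random thinning itself. When each gene was instead given its expected UMIs at 3800 per cell, with no random draw, 22 genes were at least 1.5-fold higher and 16 at least 1.5-fold lower, and 18 and 7 of them had also been called from the draw. The typical gene moved by 0.11 on the log2 scale between the draw and the expected values. The pooled log2 ratios of named genes in this sample are therefore given from the draw and from the expected UMIs, except for some genes named after their values were seen.

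Genes with the largest gain in the share of cells included App, Psmg4, Ppp2r5c and Tapbp. App, on chromosome 16 at 84952666-85175255, encodes the amyloid precursor protein, a membrane protein that is cleaved by secretases. It was detected in 57.97% of Cd69-positive cells (45.5 to 69.8) and in 24.1% of Cd69-negative cells (15.4 to 34.7). Its mean was 0.725 against 0.361 thinned UMIs per cell, a log2 ratio of 0.98 (0.32 to 1.71) in the draw and 0.59 from expected UMIs. The mean of App was higher in Cd69-positive cells in each of the 4 pools, at 0.667 against 0.542 in pool 13, 0.65 against 0.353 in pool 14, 0.643 against 0.0909 in pool 15 and 0.783 against 0.294 in pool 16. Before thinning, these 69 and 83 cells held 95 and 61 App UMIs. In wild-type cells at 2 h the same split, with 28 positive cells, gave a log2 ratio of -0.04 for App, and a difference between genotypes was not tested.

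Psmg4 encodes a chaperone of proteasome assembly and was found in 34.8% of Cd69-positive and 13.3% of Cd69-negative cells. Its log2 ratio was 1.42 (0.47 to 2.60) in the draw and 0.96 from expected UMIs, on 40 UMIs in all, which is below the minimum of the tested genes. Ppp2r5c, a regulatory subunit of protein phosphatase 2A, was found in 46.4% and 25.3% of cells, with a log2 ratio of 1.14 in the draw and 0.67 from expected UMIs. Both genes had higher means in Cd69-positive cells in each of the 4 pools. Rab3il1, an exchange factor for Rab GTPases (39.1% against 15.7%, log2 ratio 0.99 in the draw and 0.80 expected), Csnk2b, a regulatory subunit of casein kinase 2 (53.6% against 32.5%, 0.63 and 0.49), and Sys1, a membrane protein of the Golgi (36.2% against 13.3%, 0.71 and 0.44), had a higher mean in 3 of the 4 pools. The remaining genes chosen for their gain in share, AF251705, Snx30 and Tmem50a, had log2 ratios of 0.37, 0.18 and 0.18 in the draw and 0.29, 0.46 and 0.25 from expected UMIs.

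Among genes with at least 100 thinned UMIs, Hmox1 had the largest ratio. Hmox1, on chromosome 8 at 75093618-75100593, encodes heme oxygenase 1, which degrades heme and is induced by oxidative stress. Cd69-positive cells held a mean of 1.28 UMIs and Cd69-negative cells 0.627, a log2 ratio of 1.01 (0.51 to 1.55) in the draw and 0.97 from expected UMIs. The gene was uneven among cells, since 1 Cd69-positive cell held 18 of the 88 UMIs of its class. Its pools did not go the same way, with means of 0.222 against 0.5 in pool 13, 1.25 against 1.18 in pool 14, 0.929 against 0.364 in pool 15 and 2.0 against 0.647 in pool 16. When cells were classed by the Cd69 UMIs left after thinning, the log2 ratio of Hmox1 was -0.16. In wild-type cells at 2 h it was -0.51.

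The other abundant genes with large ratios were Tmem14c, a mitochondrial membrane protein needed for heme synthesis, at 0.84 in the draw and 0.57 from expected UMIs, Arhgap26, a GTPase-activating protein, at 0.69 and 0.45, Ebi3, a subunit of interleukin 27, at 0.65 and 0.56, Map1lc3b, the autophagosome protein LC3B, at 0.65 and 0.54, and Aes, a transcriptional corepressor, at 0.60 and 0.48. Tmem14c and Aes were higher in each of the 4 pools, and the other 3 genes in 3 pools. From expected UMIs none of these 5 genes reached 1.5-fold. Of the genes past 1.5-fold in the draw and from expected UMIs, Dgkd had the largest expected log2 ratio, at 1.04. It encodes a diacylglycerol kinase, was found in 40.6% against 20.5% of cells, and is named after its values were seen, as are Commd1 at 0.88, Ctcfl, a germ cell paralog of CTCF, at 0.82, and Cisd2 at 0.79. With 1 UMI added per class, the log2 ratio of Dgkd in pools 13 to 16 was 1.42, 1.14, 2.77 and -0.57. That of Commd1 was -0.58 in pool 13 and that of Cisd2 -0.02 in pool 16, each above 0 in the other pools. Ctcfl was above 0 in each of the 4 pools.

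Genes lower in Cd69-positive cells included Plekho2, Cdk4 and Id2, which passed 1.5-fold in the draw and from expected UMIs. Plekho2, on chromosome 9 at 65552577-65580087, encodes a protein with a pleckstrin homology domain. It was found in 21.7% of Cd69-positive cells (12.7 to 33.3) and 50.6% of Cd69-negative cells (39.4 to 61.8), with a log2 ratio of -1.06 (-1.95 to -0.31) in the draw and -0.72 from expected UMIs. Its mean was lower in each of the 4 pools, and the wild-type split at 2 h gave -0.12. Cdk4, the cyclin-dependent kinase of the G1 phase, had 34 UMIs in Cd69-positive and 70 in Cd69-negative cells. Its log2 ratio was -0.75 (-1.41 to -0.16) in the draw and -0.66 from expected UMIs, and its mean was lower in each of the 4 pools. In wild-type cells Cdk4 stood at 0.52.

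Id2, an inhibitor of basic helix-loop-helix transcription factors, had a mean of 0.754 UMIs in Cd69-positive and 1.17 in Cd69-negative cells, with a log2 ratio of -0.62 (-1.15 to -0.13) in the draw and -0.73 from expected UMIs. It was lower in 3 pools and stood at 1.0 in both classes of pool 13. The largest losses in share also named Ccz1 (5.8% against 26.5%), which acts in endosome maturation, Psmd10 (4.35% against 24.1%), a proteasome assembly factor, Trappc6b (15.9% against 36.1%, log2 ratio -1.20 in the draw and -0.86 expected), a subunit of a vesicle tethering complex, Fam129b (10.1% against 30.1%, -0.90 and -0.74), Vps26a (21.7% against 44.6%), a retromer subunit, Med28 (27.5% against 50.6%, -0.73 and -0.48), a Mediator subunit, Dpm3 (21.7% against 40.96%, -0.58 and -0.47), Bsg (33.3% against 54.2%), the surface protein basigin, and the predicted gene Gm2830 (39.1% against 60.2%, -0.62 and -0.47). The thinning weighed heavily on several of them. The log2 ratio of Ccz1 went from -1.997 in the draw to -0.60 from expected UMIs, that of Psmd10 from -1.997 to -0.84, that of Vps26a from -0.84 to -0.16 and that of Bsg from -0.50 to 0.00. The rule for abundant genes also named Stom, the membrane protein stomatin, at -0.57 in the draw and -0.46 from expected UMIs, and the predicted genes Gm10335 at -0.64 and -0.32 and Gm12155 at -0.59 and -0.34. Counts of predicted genes are uncertain where a near-identical copy shares their reads.

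Chemokines, the secreted attractants of leukocytes that macrophages release soon after LPS, were somewhat lower in Cd69-positive cells. Of 9 tested chemokine genes, 0 were past 1.5-fold in either direction, 8 had a log2 ratio below 0, and the median was -0.24. Of all tested genes 3.76% were past the limit higher and 2.2% lower, 46.2% were below 0, and the median was 0.03. Summed over the list, Cd69-positive cells held 47.3 thinned UMIs per cell and Cd69-negative cells 54.5, a log2 ratio of -0.21 (-0.27 to -0.14). Within pools 13, 14, 15 and 16 it was -0.46, -0.36, -0.43 and -0.01. The direction was thus the same in each of the 4 pools, with almost no difference in pool 16. In wild-type cells at 2 h the summed ratio was -0.02, at 8 h it was -0.01, and in Rad21-/- cells at 8 h it was -0.10.

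The neutrophil attractants Cxcl1 and Cxcl2 had the lowest chemokine ratios. Cxcl1, on chromosome 5 at 90891245-90893121, had a mean of 5.78 UMIs in Cd69-positive and 7.72 in Cd69-negative cells, a log2 ratio of -0.42 (-0.60 to -0.23) in the draw and -0.37 from expected UMIs. It was lower in each of the 4 pools, from 4.67 against 8.5 in pool 13 to 5.87 against 7.65 in pool 16. Cxcl2, its neighbour on the chromosome, stood at -0.45 (-0.64 to -0.25) in the draw and -0.52 from expected UMIs and was lower in 3 pools. Ccl3, a chemokine made by activated macrophages, had a log2 ratio of -0.25 in the draw and -0.17 from expected UMIs and was likewise lower in 3 pools. Cxcl10, an interferon-induced ligand of CXCR3, went the other way, with 4.09 against 2.99 UMIs and a log2 ratio of 0.45 (0.20 to 0.70) in the draw and 0.47 from expected UMIs, but it was higher in 2 pools and lower in the other 2.

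Cytokine genes showed no common direction. Tnf, an early cytokine of the LPS response, had 3.78 UMIs in Cd69-positive and 4.28 in Cd69-negative cells, with a log2 ratio of -0.18 (-0.41 to 0.06) in the draw and -0.03 from expected UMIs. Of the 4 tested members of the list, Ebi3 was past 1.5-fold higher, against 3.76% of all tested genes, and the median was 0.01. The summed list stood on the other side, at 8.30 against 8.71 UMIs per cell. Among surface molecules of activation, Cd82, a tetraspanin, was the 1 of 7 tested members past the limit, detected in 34.8% and 19.3% of cells with a log2 ratio of 1.18 (0.34 to 2.16) in the draw and 0.75 from expected UMIs. It was higher in 3 of the 4 pools. Tnfsf9, the ligand of the co-stimulatory receptor 4-1BB, was lower in each of the 4 pools, with means of 4.54 and 5.65 and a log2 ratio of -0.32 (-0.53 to -0.11) in the draw and -0.22 from expected UMIs. The 7 tested members of this list had a median of 0.06, while its sum was 13.03 against 14.34 UMIs per cell, a log2 ratio of -0.14 (-0.26 to -0.01) in the draw, so that the abundant members set the sign of the sum. From expected UMIs the sum stood at -0.06, and in pools 13 to 16 of the draw at -0.10, -0.36, -0.39 and 0.11.

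**Figure D4:**
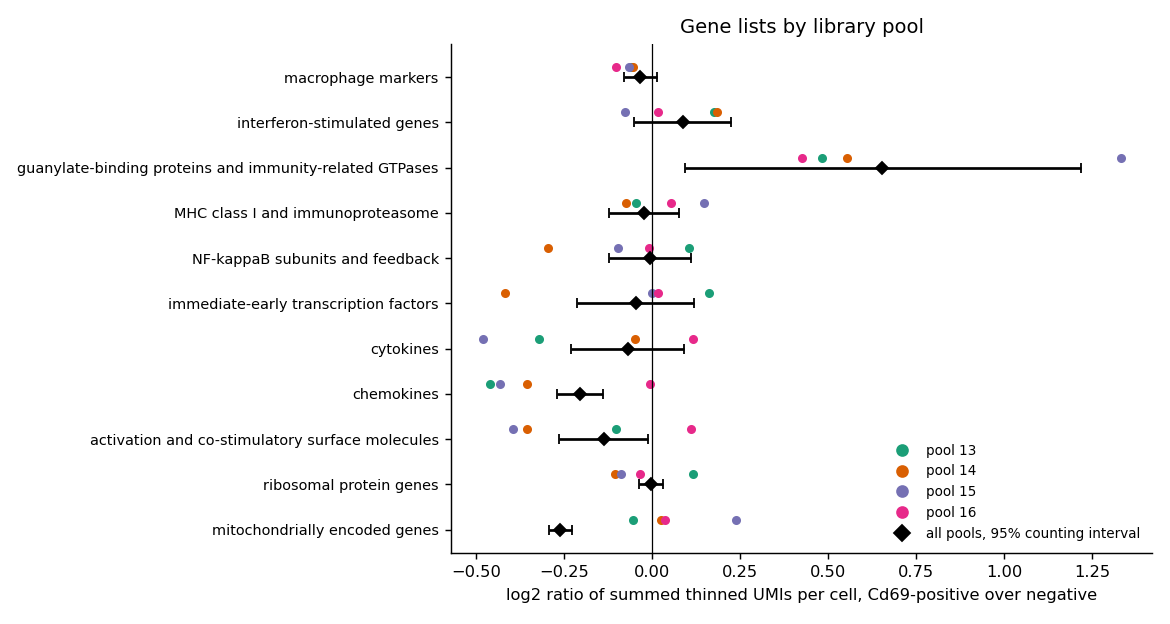
Log2 ratio of the summed thinned UMIs per cell of 11 gene lists, Cd69-positive over Cd69-negative Rad21-/- cells at 2 h. Black diamonds are all pools with 95% counting intervals, and coloured points are the 4 library pools. Chemokines lie below 0 in each pool, guanylate-binding proteins above 0 in each pool, and mitochondrially encoded genes at -0.26 over all cells but between -0.05 and 0.24 within pools.

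Transcription factors of the response showed no common direction. In the list of NF-kappaB subunits and their feedback genes, 1 of 13 tested members was past 1.5-fold higher and 1 past 1.5-fold lower, against 3.76% and 2.2% of all tested genes, with a median of 0.07 and a summed log2 ratio of -0.01. The higher gene was Birc3, a ubiquitin ligase induced by NF-kappaB, with 39 and 28 UMIs, a log2 ratio of 0.73 (0.01 to 1.499) in the draw and 0.66 from expected UMIs, higher in 2 pools and lower in the other 2. The lower one was Rela, the p65 subunit, with 20 and 42 UMIs, at -0.77 in the draw and -0.40 from expected UMIs, lower in each of the 4 pools. Nfkbia, the NF-kappaB inhibitor and the most abundant member, stood at -0.10 (-0.29 to 0.08) in the draw and -0.10 from expected UMIs. Among immediate-early factors, Ier5 was higher, at 0.79 in the draw and 0.51 from expected UMIs, and Jund, a subunit of AP-1, was lower, at -0.82 and -0.42, while Junb, the most abundant, stood at -0.01 and 0.02. These were 1 of 7 tested members past the limit in either direction, and the median was -0.12.

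Genes downstream of interferon gave a mixed picture. Of the 7 tested members of the list of interferon-stimulated genes, 0 were past 1.5-fold, 5 were above 0, and the median was 0.08. The shares over all tested genes were 3.76% past the limit higher, 2.2% lower and 53.8% above 0. The summed list held 11.65 against 10.98 UMIs per cell. None of the 16 guanylate-binding proteins and immunity-related GTPases, which attack the vacuoles of intracellular microbes, reached 50 UMIs, but together they had 64 UMIs in Cd69-positive and 49 in Cd69-negative cells. This is a log2 ratio of 0.65 (0.09 to 1.22) in the draw and 0.53 from expected UMIs, with 41 of 69 and 34 of 83 cells holding at least 1. In pools 13 to 16 the ratio was 0.48, 0.55, 1.33 and 0.43. These rest on few UMIs, with means of 0.571 against 0.227 per cell in pool 15, over 14 and 22 cells. Gbp2 contributed 10 UMIs against 1 and Gbp3 13 against 7. Irgm1 had 11 against 8, Ifi47 12 against 9, Irgm2 4 against 2 and Gvin1 1 against 0. Other members went the other way, with Gbp7 at 5 against 9, Gbp5 at 3 against 4, Igtp at 2 against 3, Iigp1 at 0 against 2 and Tgtp1 at 0 against 1. The same sum gave -0.04 in wild-type cells at 2 h, 0.10 at 8 h and 0.05 in Rad21-/- cells at 8 h.

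Antigen presentation by MHC class I gave 2 of the 9 tested members past 1.5-fold higher and 0 lower, against 3.76% and 2.2% of all tested genes, with a median of 0.16. Tapbp encodes tapasin, which loads peptides on MHC class I. It was found in 53.6% and 32.5% of cells, with a log2 ratio of 0.88 (0.23 to 1.57) in the draw and 0.58 from expected UMIs, and was higher in each of the 4 pools. Psme1, a subunit of the proteasome activator PA28, stood at 1.06 (0.27 to 1.93) in the draw and 0.68 from expected UMIs and was higher in 3 pools. B2m, the light chain of MHC class I and far more abundant, went the other way at -0.22 (-0.38 to -0.06) in the draw and -0.24 from expected UMIs. The summed list was nearly equal, at 21.67 and 22.02 UMIs per cell.

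The genes encoded by mitochondrial DNA show how much the pools matter. Of 13 tested members 11 were below 0, against 46.2% of all tested genes, with a median of -0.31, and the sum was 184.6 UMIs per cell in Cd69-positive and 221 in Cd69-negative cells, a log2 ratio of -0.26 (-0.29 to -0.23). Cells of pools 13 and 15 held far more of these transcripts than cells of pools 14 and 16. In Cd69-positive and Cd69-negative cells the sums were 302 and 314 in pool 13, 70.6 and 69.3 in pool 14, 392 and 332 in pool 15, and 114.1 and 111.4 in pool 16. Within pools the log2 ratios were -0.05, 0.03, 0.24 and 0.03, so that the pooled difference did not hold. Cd69-positive cells were more often in pools 14 and 16. Prdx1, a peroxidase, and Gm12155 showed the same split by pool, with 2.89 and 2.83 Prdx1 UMIs in pool 13 against 0.2 and 0.294 in pool 14.

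In the remaining functional lists Hmox1 was the tested member past 1.5-fold. The shares over all tested genes were 3.76% past the limit higher, 2.2% lower and 53.8% above 0. Among factors that promote the decay of inflammatory mRNA, 0 of 3 tested were past 1.5-fold, and the sum of the list was 2.91 against 3.60 UMIs per cell, a log2 ratio of -0.31 (-0.57 to -0.04) that was below 0 in 3 pools and at 0.21 in pool 16. From expected UMIs the ratio of this sum was -0.23. The highest Cd69-negative cell held 23 of the 299 UMIs of its class, and the highest Cd69-positive cell 9 of 201. MAP kinase phosphatases and feedback inhibitors, whose sum stood at 0.23 (-0.08 to 0.53), had 3 tested members above 0. Sums of the lists for Toll-like receptor signalling, for IRF, JAK, STAT and SOCS genes and for glycolysis stood at -0.15, 0.11 and 0.14, each with an interval that includes 0. The list of inducible metabolism and oxidative response, which holds Hmox1, stood at 0.07, while the median of its 5 tested members was -0.11. The p53 targets, with Cdkn1a as the most abundant, stood at -0.08, the actin and adhesion genes at 0.00 and the genes of MHC class II presentation at 0.01. For cohesin subunits, loaders and CTCF the sum stood at 0.12 (-0.20 to 0.44), and for cell cycle genes it was -0.02 (-0.26 to 0.21).

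Both classes had the transcripts of macrophages. Of 16 tested macrophage markers, 0 were past 1.5-fold, against 3.76% of all tested genes higher and 2.2% lower. The median of the markers was -0.05, and their sums were 99.6 and 102 UMIs per cell, ranging over 54 to 155 and 61 to 170 among cells. Ctsb, a lysosomal protease and the most abundant of them, was detected in 100% of cells of either class, and Csf1r, the receptor for macrophage colony-stimulating factor, in 82.6% and 79.5%. Markers of other cell types were scarce. Of the 10 neutrophil and progenitor markers 2 are in the matrix and stood at 0, and those of NK cells summed to 4 UMIs in Cd69-positive and 3 in Cd69-negative cells, those of mast cells to 8 and 11 and those of fibroblasts to 7 and 4. Dendritic cell markers summed to 9 and 3 UMIs, with 9 and 2 of Zbtb46, a transcription factor of classical dendritic cells, 0 and 1 of Flt3, and 0 of Itgax in both classes. The log2 ratio of Zbtb46, named after its values were seen, was 2.00 (0.16 to 5.69) in the draw. For the whole dendritic cell list it was 1.85 (-0.15 to 4.37) in the draw and 1.08 from expected UMIs. CD69 is a known marker of activated T and NK cells, and the T cell list summed to 0.391 UMIs per Cd69-positive and 0.566 per Cd69-negative cell, most of it Cd28. The log2 ratio of this sum was -0.53 (-1.27 to 0.18) in the draw and -0.08 from expected UMIs. For the NK cell list, with its 4 and 3 UMIs, it was 0.68 (-1.88 to 3.45) and 1.25. Of the defining genes of T cells, Cd3g had 2 UMIs in each class, Lck had 3 and 4, and Il7r had 0 and 8, all 8 in Cd69-negative cells. B cell markers summed to 1.06 and 1.16 UMIs per cell, mostly Ighm and Blnk, and Blnk was past 1.5-fold lower at -0.70 in the draw and -0.48 from expected UMIs. The erythroid and megakaryocyte list summed to 1.594 and 1.699, nearly all of it Pf4, a platelet chemokine gene. What part these transcripts have in the other results was not tested. Ribosomal protein genes were alike, with 178.7 and 179.1 UMIs per cell and a median of -0.01 over 71 tested members.

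The named genes did not follow the amount of Cd69 in a common way. Cells with 1 Cd69 UMI and cells with at least 2 numbered 32 and 37 after thinning. Hmox1 had means of 0.906 and 1.59 in them, Tapbp 0.469 and 0.973, and Cxcl1 4.12 and 7.22, against 0.627, 0.398 and 7.72 in Cd69-negative cells. The cells with at least 2 Cd69 UMIs therefore had Cxcl1 close to the Cd69-negative level, and its lower mean in the positive class came mostly from cells with 1 Cd69 UMI. This did not hold for the chemokine list as a whole, which summed to 45.0 and 49.2 UMIs per cell, against 54.5 in Cd69-negative cells. For cells with at least 2 Cd69 UMIs against 0, the log2 ratios of Cxcl1, Cxcl2 and Ccl3 were -0.09, -0.34 and -0.17. App, at 0.75 and 0.703, had similar means in both.

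The same split was made in the other stimulated samples, which the choice of cells had not used. After thinning it set 28 positive against the other cells, of 160 wild-type cells at 2 h, 47.3% of 224 at 8 h and 66 of 201 Rad21-/- cells at 8 h. If Cd69 had the same share of UMIs in every cell, 18.2% of unthinned wild-type cells at 2 h would be positive, and 17.7% were. For Rad21-/- cells at 2 h these values were 56.8% and 41.3%. Whether the wild-type classes at 2 h differ in Cd69 content can thus not be told from their counts. A difference between genotypes in these ratios was not tested. Of the 47 genes past 1.5-fold higher here that had at least 50 UMIs in wild-type cells at 2 h, 29 were also above 0 there, 7 were past 1.5-fold in the same direction and 3 in the opposite one. Over all 1576 shared genes 57.3% were above 0 there, 8.12% were past 1.5-fold higher and 6.66% lower. Of the 33 lower genes, 14 were below 0, 3 were past 1.5-fold in the same direction and 4 in the opposite one, while 42.6% of all shared genes were below 0. The correlation of log2 ratios across genes was close to 0 in each case, with Pearson's r of 0.028 for wild-type at 2 h over 1576 genes, 0.024 for wild-type at 8 h over 1614 and 0.064 for Rad21-/- at 8 h over 1720. Genes are not independent replicates, and these coefficients carry no test.

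Genes close to Cd69 showed no common shift. The reference table lists 46 genes within 500 kb, a cluster rich in C-type lectin genes of NK cells and myeloid cells, and 11 of them are in the matrix. Clec12a, an inhibitory lectin of myeloid cells that starts 74.4 kb from the end of Cd69, had 28 UMIs in Cd69-positive and 51 in Cd69-negative cells, a log2 ratio of -0.58 (-1.32 to 0.09) in the draw and -0.04 from expected UMIs. Gabarapl1, an autophagy gene, had 23 UMIs in each class and Clec2g 22 and 21. The others, Clec7a, Olr1, Clec2d, Clec2i, Klrb1c, BC035044, 2310001H17Rik and Gm15987, had at most 6 UMIs in a class, too few for a ratio. S1pr1, the receptor that CD69 binds, had 1 UMI in each class, and Lgals1, which encodes the CD69 ligand galectin 1, stood at 0.09 (-0.06 to 0.23) in the draw and 0.07 from expected UMIs, with 10.97 and 10.3 UMIs per cell.

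Of the inducible genes that the study follows by imaging, Tnf and Cxcl10 are described above. Cd40, a co-stimulatory receptor, had 47 UMIs in Cd69-positive and 53 in Cd69-negative cells, a log2 ratio of 0.10 (-0.50 to 0.69) in the draw, and Atf3, a stress-induced transcription factor, had 81 and 84, a log2 ratio of 0.21 (-0.24 to 0.67). Cd40 and Atf3 are named after their values were seen. Il12b, Ifnb1, Egr2, Peli1 and Prdm1 were scarce. Il12b, the p40 subunit of interleukin 12, had 7 UMIs in Cd69-positive and 11 in Cd69-negative cells, and Ifnb1 had 0 in both. Egr2, a zinc finger transcription factor, had 2 and 12, in 2.90% and 9.64% of cells, with a log2 ratio of -1.85 (-5.52 to -0.15) in the draw and -1.29 from expected UMIs. Peli1, a ubiquitin ligase of Toll-like receptor signalling, had 15 and 18, and Prdm1, the transcriptional repressor Blimp-1, had 13 and 16, which gave log2 ratios of 0.02 and -0.01 in the draw and -0.18 and 0.31 from expected UMIs. Vim, which encodes the intermediate filament vimentin, was lower in each of the 4 pools, with means of 2.14 and 2.88 and a log2 ratio of -0.42 (-0.73 to -0.12) in the draw and -0.33 from expected UMIs.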

How the data were processed

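The authors demultiplexed the MARS-seq reads, trimmed polyT stretches, aligned them to GRCm38.p4 with GEMTools, dropped poor wells, collapsed reads that shared a UMI within a gene, and deposited raw UMI counts per gene and cell with no normalization. The 6 samples held 1417409 to 2195921 UMIs each. From these counts, wells above 25000 UMIs were left out and cells were thinned to 3800 UMIs without replacement, with a fixed seed. Doublets were not called, as wells had received sorted single cells. Ratios of mean UMIs, with 1 UMI added per class, carry exact conditional binomial intervals and shares Clopper-Pearson intervals at 95%. List sums had no added UMI. Values within a pool needed at least 5 cells of each class. Expected UMIs were each count scaled to 3800 per cell.

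Named genes were the 10 largest gains and 10 largest losses in share, the 6 largest and 6 smallest log2 ratios among genes of at least 100 UMIs, the 3 largest absolute ratios and the most abundant member of each gene list, genes within 500 kb of Cd69, Rad21 and the genes the study follows. The members, the lists and this rule were chosen with earlier results of these data known. Coordinates are from a RefSeq table of GRCm38.p6, which held 16122 of the 18429 gene names. Alternatives were CPM over all UMIs, pairs of cells matched on UMIs, 5500 UMIs, at least 2 Cd69 UMIs, Cd69 counted after thinning, deep wells kept, equal weight per pool, each pool left out, gene minima of 20 and 100 UMIs, an added 0.5 UMI and centring. The steps were tested on simulated counts. Python 3.11.15, numpy 2.4.6, pandas 2.3.3, scipy 1.17.1 and matplotlib 3.10.9 were used.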

Additional observations from a re-analysis of the deposited data

Results flagged for a closer look

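For 2 named genes the same split went past 1.5-fold in opposite directions in this sample and in another. Gm10335, a predicted gene, had a log2 ratio of -0.64 in Rad21-/- cells at 2 h and 0.60 in wild-type cells at 2 h. Jund had -0.82 in Rad21-/- cells at 2 h and 0.63 in Rad21-/- cells at 8 h. Each value comes from 1 sample, so that the difference was not tested for either gene. From expected UMIs the values in Rad21-/- cells at 2 h were -0.32 for Gm10335 and -0.42 for Jund.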

How the results depend on the processing

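The count of genes at least 1.5-fold higher was 70, and the count at least 1.5-fold lower was 41. The higher count was 43 from mean CPM, 22 from expected UMIs, 7 with a gene minimum of 100 UMIs and 547 with a minimum of 20. The lower count was 120 with 64 pairs matched on UMIs, 63 at 5500 UMIs, 16 from expected UMIs, 87 with Cd69 counted after thinning, 5 with a minimum of 100 UMIs and 398 with a minimum of 20. Leaving out 1 library pool at a time gave 50 to 71 higher and 39 to 54 lower genes. Of the 70 higher genes 17 were also called from mean CPM, 12 in matched pairs and 25 without pool 16. The share of Cd69-positive cells was 28.9% after thinning and 26.5% when cells with 1 Cd69 UMI were left out, and it lay between 37.1% and 47.1% without 1 pool. The log2 ratio of Blnk was 0.0204 at 5500 UMIs, that of Gm12155 0.0803 with equal weight per pool of at least 10 cells of each class, and that of Hmox1 -0.157 with Cd69 counted after thinning. Of 2268 values of named genes under alternatives, 2187 stayed within the counting interval of the main value, and 200 values, from 70 genes, had the opposite sign. The alternatives reuse the same sample, and the intervals are wide, with no limits for genes such as Ifnb1. The number that stayed is therefore weak evidence of stability. Of the 26 named genes past 1.5-fold, Blnk, Gm12155 and Hmox1 took the opposite sign in an alternative. Of 491 list values 461 stayed and 30 moved. Equal weight per pool of at least 5 cells of each class was added after the data were seen. No paired analysis was possible because each group has 1 sample and no replicate to pair, and within this sample the classes were compared within pools and in pairs of cells matched on UMIs. Depth limits single genes, since the median half-width of the interval was 0.64.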
